A study of Mus musculus with 20 samples.

Results

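The 35 genes described here encode the contractile and anchoring proteins of the adult cardiac sarcomere and its Z-disc. They were chosen by name: each gene on a fixed list of 35 symbols was looked up in both deposited expression tables, and all 35 were found among the 17808 genes of the 6-week table and the 18657 genes of the 6-month table. By role, 10 belong to the thin filament, 5 to the thick filament and its kinases, 5 to titin and the M-band, 8 to the core of the Z-disc and 7 to its periphery. RNA came from hearts of 20 mice in 5 groups. Wild-type (WT, 3 mice) and Sorbs2 knockout (KO, 3 mice) hearts were taken at 6 weeks. WT (5 mice), KO (5 mice) and vector-treated KO hearts (KO+AAV, 4 mice) were taken at 6 months. The KO+AAV mice carried the same Sorbs2 knockout and had been injected on postnatal day 2 with AAV9-Tnnt2-Sorbs2, an adeno-associated virus that expresses Sorbs2 from the promoter of cardiac troponin T, itself 1 of the 35 genes. The untreated KO mice received no control vector, so an effect of the virus and an effect of Sorbs2 cannot be told apart. No label states the strain, the sex or the design of the knockout allele. The labels do not say whether the libraries of a group came from separate litters, so p-values measure only the spread between these libraries.

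Sarcomeres are the repeating contractile units of the heart muscle cell, in which myosin-based thick filaments slide along actin-based thin filaments when calcium binds troponin. Thin filaments are anchored at the Z-disc by alpha-actinin, and thick filaments are cross-linked at the M-band by myomesins, with titin spanning from one to the other as a molecular spring. Around the Z-disc lies a periphery of filamin, PDZ-LIM, synaptopodin and chaperone proteins that links the sarcomere to the cytoskeleton and deals with damaged filaments. Sorbs2 encodes an adaptor protein found at the Z-disc.

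Sorbs2 was measured first as a check of the labels. At 6 months its normalised count was 5352, 5398, 5136, 4562 and 4753 in the WT libraries, 1648, 612, 593, 494 and 1755 in the KO libraries and 4696, 5753, 15690 and 17923 in the KO+AAV libraries, each in order of replicate number. KO and WT did not overlap (exact two-sided permutation test, p = 0.00794, the smallest this design allows). At 6 weeks the values were 1409, 1751 and 1990 in WT and 365, 334 and 276 in KO, again without overlap (exact permutation p = 0.1, the smallest possible with 3 against 3). KO 1 and KO 5 held about as much Sorbs2 as each other and more than the other KO libraries, and KO+AAV 3 and KO+AAV 4 held more than KO+AAV 1 and KO+AAV 2.

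Totals of normalised counts were 6.71 to 8.24 M per library at 6 weeks and 11.4 to 13.7 M at 6 months (M, 1e6), and levels were compared only within an age because each table had been normalised on its own. The X-inactivation RNA Xist marked 1 of 3 libraries in each 6-week group. At 6 months it marked 2 of the 5 WT libraries, none of the 5 KO libraries and 2 of the 4 given the vector. Y-linked genes were expressed in the remaining libraries. The labels name the tissue as left ventricle, yet atrial genes were present at 6 weeks: the atrial light chain Myl7 lay between 20062 and 35243 in the 6 libraries of that age. At 6 months Myl7 lay between 0.857 and 459, and the atrial marker Bmp10 was at 0 in all 5 KO libraries.

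In short, few of the 35 genes changed in the KO heart, and they changed in both directions. At 6 months, the genes for cardiac troponin I (Tnni3), alpha-tropomyosin (Tpm1), the ventricular essential light chain (Myl3) and the myosin light chain kinase family member Mylk4 fell. The genes for myomesin 3 (Myom3), myotilin (Myot), beta-tropomyosin (Tpm2) and filamin C (Flnc) rose. Myom3 was 8.12-fold higher and Mylk4 4.93-fold lower on the log2(value + 1) scale. Of 25 alternative settings, 22 lost the call of Tpm1, 16 that of Myl3 and 4 that of Tnni3. Tnni3, Tpm1 and Myl3 lost their calls with the Xist or Y-linked class as a covariate. The calls of Tpm2 and Flnc were each lost in 1 setting, and those of Mylk4, Myom3 and Myot in 0. In KO+AAV hearts Tnni3 and the cardiac troponin T gene Tnnt2 were called higher than in KO hearts. Myom3, Myot, Flnc, Pdlim1, Pdlim5 and Synpo2 were called lower. Of these, Tnnt2, Pdlim1, Pdlim5 and Synpo2 had not been called in KO against WT. With the Xist or Y-linked class as a covariate, only Myom3, Myot and Flnc kept their calls in KO+AAV against KO. Tpm1, Tpm2, Myl3 and Mylk4, called in KO against WT, were not called in KO+AAV against KO. At 6 weeks none of the 35 genes passed the test.

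Myoz1 was too low to test (means of 2.39 to 14.4 in the 5 groups) and the other 34 genes were tested within the fit over all genes. A gene was called when its adjusted p was under 0.05 in limma, a linear model fitted across all genes, after Benjamini-Hochberg adjustment over all of them. At 6 months KO against WT called 8 of the 34 (23.5%), 4 higher and 4 lower. Of all 13419 genes tested, 16.3% were called, 8.13% higher and 8.18% lower. The share among the 34 was higher than that by few genes, and nothing particular to them is read from it. KO+AAV against KO called 8 of 34 (23.5%), 2 higher and 6 lower, against 11.2% of all genes (5.55% higher and 5.69% lower). These comparisons share the KO libraries, so opposite signs between them are partly built in, and the values are set side by side only. KO+AAV against WT called 0 of 34, against 1.33% of all genes (0.611% higher and 0.715% lower). At an unadjusted p under 0.05 in limma there were 7 of 34 (20.6%), against 18.3% of all genes. No gene of the 34 had values without overlap in that comparison, against 5.4% of all genes. At 6 weeks KO against WT called 0 of 34, against 0.589% of all genes (0.378% higher and 0.211% lower). At an unadjusted p under 0.05 in limma there were 2 of 34 (5.88%), against 15.4% of all genes. The difference of the KO effect between the ages was called for 2 of 34, 1 in each direction, against 4.08% of all genes (1.99% higher and 2.09% lower).

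The median log2 change of the 34 genes was -0.17 in KO against WT at 6 months, -0.18 in KO+AAV against KO and -0.13 in KO+AAV against WT, beside medians of 0.00 over all genes in each of these. Scaling the 6-month libraries to equal totals moved the median of all genes in KO against WT to 0.16, and the 34 genes then split into 6 called higher and 2 called lower in place of 4 and 4, with 18.1% of all genes called under that scaling. In KO+AAV against KO the split became 1 higher and 6 lower in place of 2 and 6, with 11.5% of all genes called. A shift of all genes moves the 34 with it, so nothing particular to them is read from these splits. Under that scaling the called direction of no gene turned. Values of KO and WT at 6 months did not overlap for 9 of 34 genes (26.5%), against 13.8% of all genes. Those of KO+AAV and KO did not overlap for 13 of 34 (38.2%), against 14.1% of all genes. The plot of log2 changes by role sets the 34 genes beside each other.

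**Figure D1:**
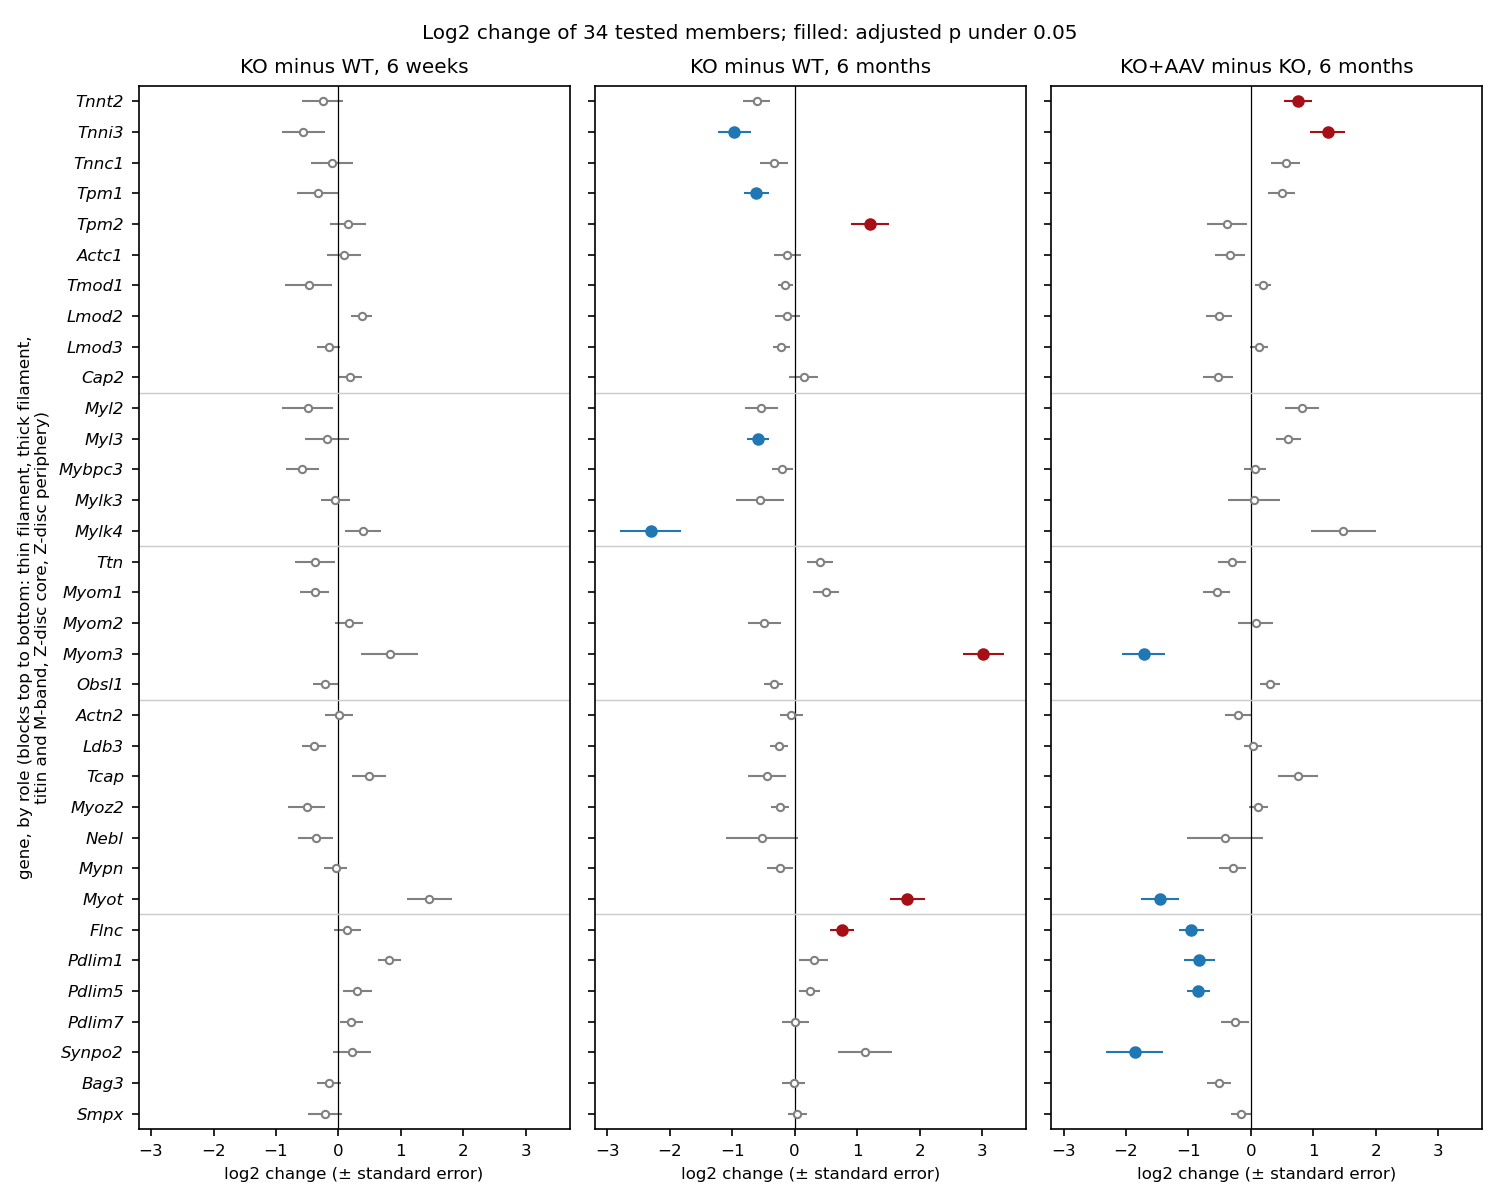
Log2 change with its standard error (horizontal axis) of the 34 tested genes (vertical axis, in blocks by role) for KO minus WT at 6 weeks, KO minus WT at 6 months and KO+AAV minus KO at 6 months; filled points have an adjusted p under 0.05 in limma. No point is filled at 6 weeks, and Myom3 (3.02) and Mylk4 (-2.30) lie farthest from 0 in KO minus WT at 6 months.

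Levels per kilobase of exon spread over more than 4 orders of magnitude and were led by the thin and thick filament. In WT hearts at 6 months the mean was 95639 per kb for cardiac actin (Actc1), 81476 for the ventricular regulatory light chain (Myl2), 54770 for cardiac troponin C (Tnnc1), 51460 for Myl3 and 46155 for Tnni3. The Z-disc cap protein Tcap, the titin anchor at the Z-disc, followed in the sixth place. At the other end stood nebulette (Nebl, 31.7 per kb), Myom3 (7.34) and calsarcin 2 (Myoz1, 2.72). Of the 8 genes called in KO against WT, Tnni3, Tpm1 and Myl3 ranked 5, 7 and 4 in WT, and Myot, Mylk4, Tpm2 and Myom3 ranked 25, 27, 30 and 34. Myot ranked 18 in KO hearts and Mylk4 ranked 32. Without division by length, Tpm1 had the highest mean and titin (Ttn), the longest transcript of the group, ranked 7 in place of 23.

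**Figure D2:**
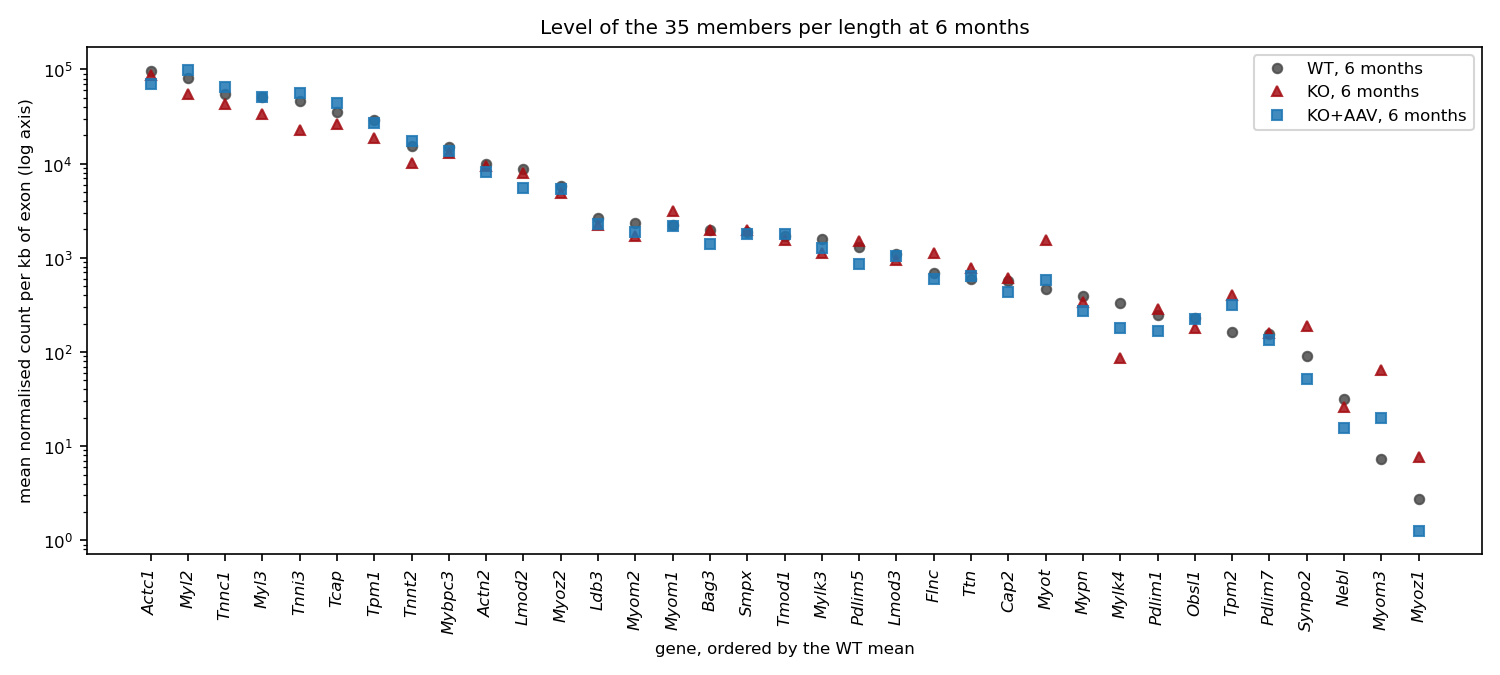
Mean normalised count per kilobase of exon (vertical log axis) of all 35 genes in WT, KO and KO+AAV hearts at 6 months, ordered by the WT mean (horizontal axis). Actc1 (95639 per kb in WT) stands at the left end and Myoz1 (2.72) at the right end, and the KO symbols of Myom3, Myot and Tpm2 stand above the WT symbols.

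Promoter sequences were read for the genes that moved, to show what lies next to their starts. In RefSeq (GRCm38.p6), 30 of the 35 genes matched an entry, with 39 promoters. The 250 bases before each start were searched on both strands for the M-CAT element (CATTCC, bound by TEAD factors), the CArG box (bound by SRF) and the MEF2 element. M-CAT matched 9 of the 39 promoters (23.1%) against 12.6% of all 32851 promoters, CArG 6 (15.4%) against 1.47% and MEF2 6 (15.4%) against 2.92%. These shares describe letters only, and several promoters belong to the same gene. The 4 sequences below are those of 2 genes that fell in KO hearts (Myl3, Mylk4) and of 2 that were higher in KO than in KO+AAV hearts (Myom3, Synpo2). Each is written 5′ to 3′ on the gene's strand with the matches in capitals. For Myl3 (chr9:110763428-110763645, plus strand, from 250 to 33 bases before the start) the capitals mark M-CAT at 177 to 172 (minus strand) and at 149 to 144 bases before the start and a CArG box at 85 to 76. For Mylk4 (chr13:32783965-32784214, minus strand), Myom3 (chr4:135759465-135759714, plus strand) and Synpo2 (chr3:123236150-123236399, minus strand) they mark a MEF2 element at 103 to 94, 35 to 26 and 236 to 227 bases before the start.
Myl3: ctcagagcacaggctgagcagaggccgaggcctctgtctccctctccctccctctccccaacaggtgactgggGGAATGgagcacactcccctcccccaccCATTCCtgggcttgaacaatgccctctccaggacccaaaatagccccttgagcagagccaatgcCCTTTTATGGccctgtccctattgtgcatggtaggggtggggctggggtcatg
Mylk4: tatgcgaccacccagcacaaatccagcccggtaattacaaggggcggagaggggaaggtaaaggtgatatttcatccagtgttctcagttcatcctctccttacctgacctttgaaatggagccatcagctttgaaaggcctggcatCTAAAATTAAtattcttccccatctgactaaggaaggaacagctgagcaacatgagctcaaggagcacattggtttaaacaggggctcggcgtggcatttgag
Myom3: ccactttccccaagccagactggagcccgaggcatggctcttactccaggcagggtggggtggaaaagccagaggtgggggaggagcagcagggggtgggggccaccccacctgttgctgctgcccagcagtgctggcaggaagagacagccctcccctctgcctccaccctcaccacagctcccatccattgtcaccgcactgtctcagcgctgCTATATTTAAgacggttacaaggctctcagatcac
Synpo2: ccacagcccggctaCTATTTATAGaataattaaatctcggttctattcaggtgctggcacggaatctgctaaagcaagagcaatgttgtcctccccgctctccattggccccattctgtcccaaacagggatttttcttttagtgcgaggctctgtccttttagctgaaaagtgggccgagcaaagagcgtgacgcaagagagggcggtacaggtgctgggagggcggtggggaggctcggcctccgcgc
These 4 were picked among promoters that hold a match. Of the 6 promoters with a MEF2 element, 3 belong to genes that were called in no comparison (Ttn, Mybpc3, Myoz2), and the called genes Tnni3, Tpm2, Pdlim1 and Pdlim5 held none of the 3 motifs.

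In the thin filament, the genes for cardiac troponin I and alpha-tropomyosin were called lower and that for beta-tropomyosin higher in KO hearts at 6 months. Of its 10 genes, 1 was called higher and 2 lower in KO against WT (8.13% and 8.18% of all genes), and 8 of 10 had log2 changes below 0 (median -0.18). The signs of Actc1, Tmod1 and Lmod2 turned under equal totals and under quantile normalisation, so the split of signs depends on the scaling. Tnni3 (chr7:4518305-4524229, mm10, minus strand), the inhibitory subunit of cardiac troponin, was at 92846, 64868, 67835, 108098 and 142441 in WT and at 59649, 44928, 44984, 41339 and 44323 in KO. No KO library reached the lowest WT library, and KO 1 stood above the other KO libraries. The log2 change was -0.97 with a standard error of 0.27 (limma adjusted p = 0.0212). The KO+AAV libraries held 167135, 133439, 85807 and 74885, all above every KO library (log2 change against KO 1.23, SE 0.28, limma adjusted p = 0.0124). Without KO+AAV 1 the latter adjusted p was 0.0584, and without WT 4 the former was 0.0529. Both Tnni3 calls were also lost with the Xist or Y-linked class as a covariate and among libraries with Y-linked expression alone.

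Cardiac troponin T (Tnnt2, chr1:135836354-135852260, plus strand), which ties troponin to tropomyosin, was at 121165, 105774, 97733, 134706 and 141524 in WT, at 89971, 70956, 69981, 75378 and 85517 in KO and at 189240, 134903, 103166 and 111589 in KO+AAV. KO did not overlap either other group. The change in KO against WT missed the threshold (log2 -0.61, SE 0.21, limma adjusted p = 0.0616), and the increase in KO+AAV against KO passed it (0.75, SE 0.22, adjusted p = 0.0433). That second call was lost in 13 of 25 alternative settings. The calcium sensor Tnnc1 had log2 changes of -0.33 in KO against WT and 0.56 in KO+AAV against KO, with adjusted p = 0.362 and 0.127 in limma.

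The tropomyosins, the coiled coils that lie along actin and gate myosin binding, moved in opposite directions in KO hearts. Tpm1 (chr9:67022590-67049406, minus strand), the main cardiac isoform gene, was at 191381, 162277, 161085, 201612 and 220479 in WT and at 132550, 125853, 126063, 112655 and 111150 in KO, without overlap. Its log2 change of -0.62 (SE 0.20) had a limma adjusted p of 0.0493, just inside the threshold, and the call was lost in 22 of 25 alternatives while the change stayed between -0.67 and -0.44. The KO+AAV libraries were at 222640, 150159, 164415 and 156180, all above KO, with a log2 change of 0.50 against KO that did not pass (limma adjusted p = 0.140).

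Tpm2 (chr4:43514711-43523765, minus strand), which encodes beta-tropomyosin and is also a gene of slow skeletal and smooth muscle, was at 542, 399, 363, 463 and 631 in WT and at 1456, 731, 874, 898 and 1835 in KO. Every KO library was above every WT library, and KO 1 and KO 5 were the highest (log2 change 1.21, SE 0.30, limma adjusted p = 0.0123). Without KO 1 and KO 5 the change was 0.82 and the call was lost (limma adjusted p = 0.103). In KO+AAV Tpm2 was at 775, 1642, 813 and 467, overlapping both other groups (log2 change against KO -0.39, limma adjusted p = 0.432). Per length, Tpm2 made up 0.563% ± 0.064 (SD, n = 5) of the tropomyosin signal of both genes in WT, 2.10% ± 0.91 (n = 5) in KO and 1.23% ± 0.79 (n = 4) in KO+AAV. Of 14 smooth-muscle and pericyte markers, KO against WT called 2 higher (Des, Cspg4) and 2 lower (Acta2, Abcc9), beside 8.13% and 8.18% of all genes. The sum of the 14 markers ranged from 48318 to 60691 in WT and from 62719 to 104692 in KO. Des, a gene that cardiomyocytes also express, made up 70.0% of it in WT and 86.6% in KO. The median log2 change of the 14 markers was -0.16, so the higher sum does not describe the list as a whole. The part of these markers in the Tpm2 change was not tested. At 6 weeks, where atrial RNA was present, Tpm2 took 7.61% ± 2.40 of the tropomyosin signal in WT and 10.5% ± 4.4 in KO (SD, n = 3 each).

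The other thin-filament genes did not pass in any comparison. Actc1 had the highest level of them per length, with log2 changes of -0.12 in KO against WT, -0.34 in KO+AAV against KO and -0.45 in KO+AAV against WT. Tropomodulin 1 (Tmod1) and the leiomodins Lmod2 and Lmod3, which cap or elongate the pointed ends of actin filaments, lay between -0.21 and -0.11 in KO against WT, and the actin-remodelling protein gene Cap2 at 0.14. Lmod2 was lower in KO+AAV (9726 to 11677) than in most WT libraries (10763 to 23832), by a log2 change of -0.62 whose limma adjusted p was 0.160. About 32.6% of the Tmod1 exon length overlaps Tstd2 on the other strand, and no source states whether the counting used strand.

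All 5 genes of the thick filament group had log2 changes below 0 in KO against WT at 6 months (median -0.56), and 2 of 5 were called lower, beside 8.18% of all genes. The signs of these 5 were the same under equal totals and under quantile normalisation. Myl3 (chr9:110741861-110769798, plus strand), which encodes the essential light chain on the myosin lever arm, was at 111067, 82381, 84890, 115627 and 131952 in WT, at 76743, 65265, 65412, 66595 and 70931 in KO and at 107913, 108576, 105061 and 96766 in KO+AAV. KO lay below both other groups without overlap. The log2 change was -0.59 in KO against WT (SE 0.18, limma adjusted p = 0.0389) and 0.60 in KO+AAV against KO (SE 0.20, limma adjusted p = 0.0574, not passing). The first call was lost in 16 of 25 alternatives. The regulatory light chain gene Myl2 had log2 changes of -0.53 and 0.82 in the same comparisons, with limma adjusted p = 0.189 and 0.0641. Myosin-binding protein C (Mybpc3), a brake on cross-bridge cycling, changed least in the group at -0.20 (limma adjusted p = 0.493).

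Mylk4 (chr13:32700834-32783954, minus strand), a myosin light chain kinase family gene, showed the largest decrease of the 34 genes. It was at 2169, 4449, 2431, 1699 and 2124 in WT and at 186, 979, 1112, 896 and 158 in KO. KO libraries were below WT libraries throughout, and KO 1 and KO 5 were far below the other KO libraries. The log2 change was -2.30 (SE 0.49, limma adjusted p = 0.00428), and without KO 1 and KO 5 it was -1.29 with the call kept. In KO+AAV, Mylk4 was at 1256, 1165, 1366 and 1782, above every KO library, with a log2 change of 1.48 (SE 0.52) that did not pass in limma (adjusted p = 0.0760). The cardiac light chain kinase Mylk3, its paralog, had -0.56 in KO against WT (SE 0.39, limma adjusted p = 0.385) and was low in KO 1 (2401), KO 5 (3197), KO+AAV 1 (2872) and KO+AAV 2 (2333). Per length, Mylk4 made up 17.3% ± 4.0 (SD, n = 5) of the Mylk3 and Mylk4 signal in WT, 6.37% ± 3.06 (n = 5) in KO and 15.1% ± 6.5 (n = 4) in KO+AAV.

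**Figure D3:**
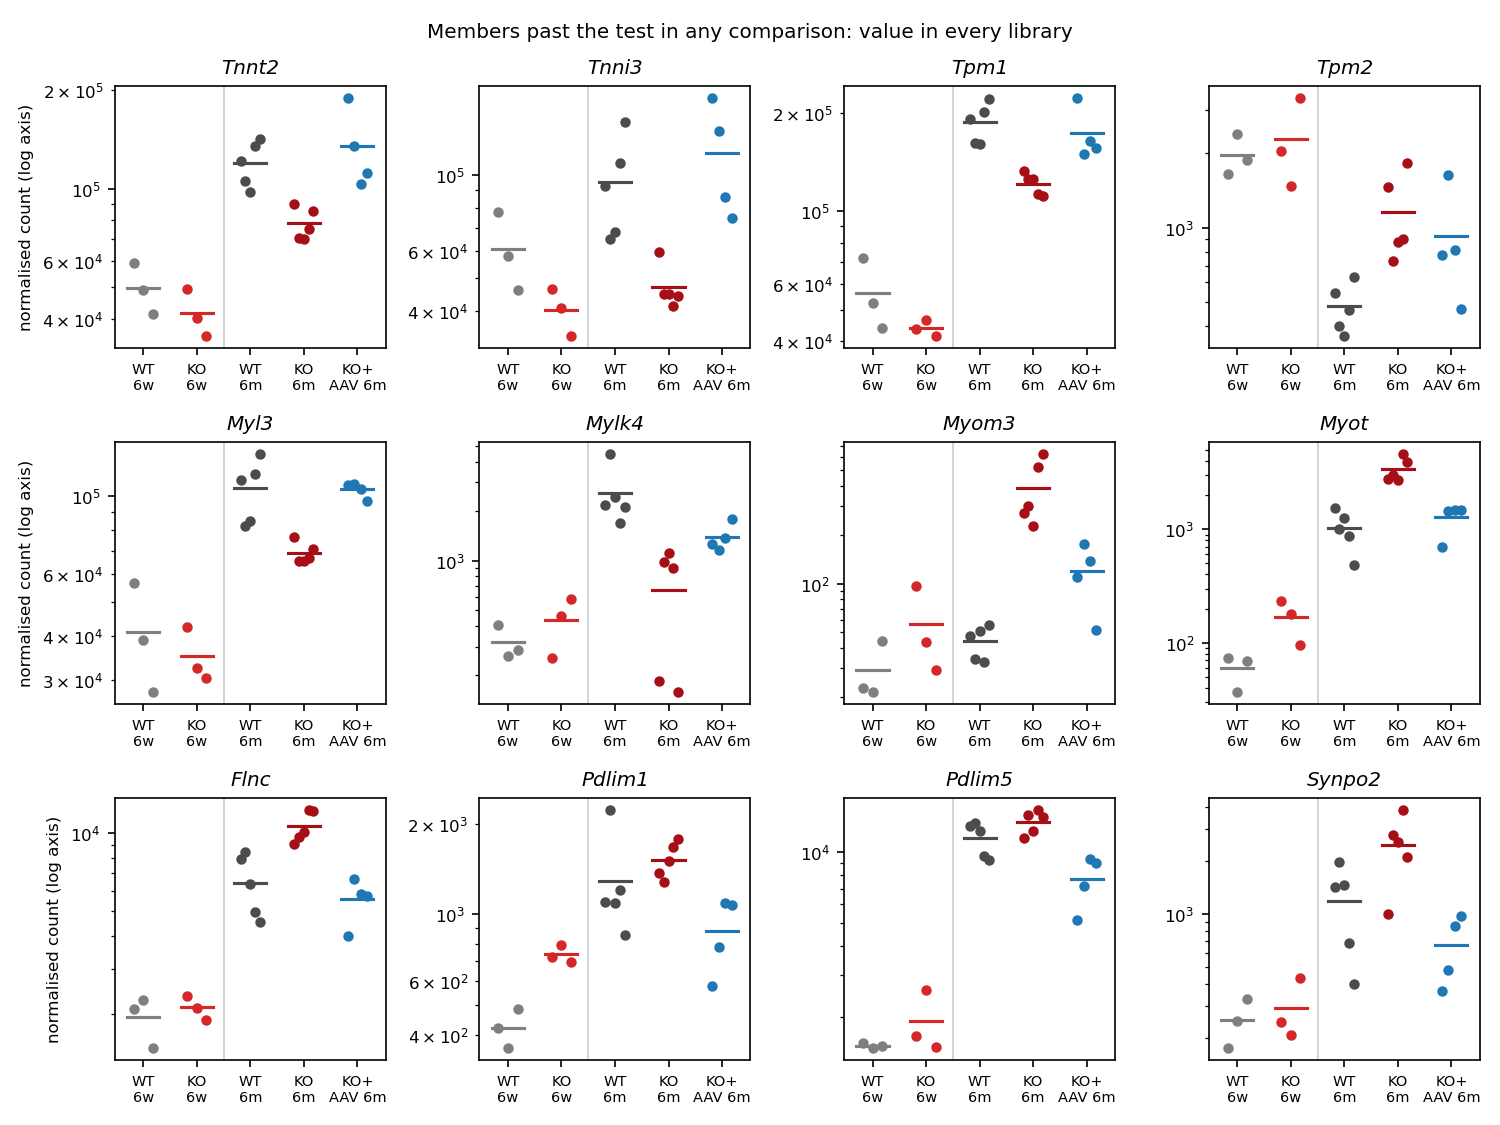
Normalised count in every library (vertical log axis) of the 12 genes called in any comparison, by group (horizontal axis); bars mark group means, and a grey line separates the ages, which were normalised apart. Myom3 at 6 months lies between 32.8 and 55.8 in WT and between 225 and 628 in KO, and Mylk4 in KO 1 and KO 5 lies at 186 and 158.

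At the M-band, 1 of 5 genes was called in KO against WT, myomesin 3, which rose (8.13% of all genes were called higher). Myom3 (chr4:135759715-135815564, plus strand), the myomesin of slow and intermediate skeletal fibres, was at 47.8, 34.2, 50.9, 32.8 and 55.8 in WT and at 270, 301, 225, 518 and 628 in KO. The groups were far apart (log2 change 3.02, SE 0.33, limma adjusted p = 2.19e-05), the largest change among the 34 genes. In KO+AAV it was at 110, 176, 138 and 51.6, below every KO library (-1.72, SE 0.35, limma adjusted p = 0.00652). KO+AAV 4 lay within the WT range and the other 3 above it, and the difference from WT did not pass (1.30, SE 0.35, limma adjusted p = 0.0747). Without KO+AAV 4 that difference was called.

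Even in KO hearts Myom3 was a small share of the myomesins. Per length it made up 0.168% ± 0.066 (SD, n = 5) of the 3 myomesin genes in WT, 1.30% ± 0.50 (n = 5) in KO and 0.544% ± 0.331 (n = 4) in KO+AAV. The main cardiac cross-linkers Myom1 and Myom2 had log2 changes of 0.50 and -0.48 in KO against WT, with limma adjusted p = 0.115 and 0.249. Ttn had 0.41 (limma adjusted p = 0.221), with KO 4 at 116254 and the other KO libraries between 82293 and 91381. Obscurin-like 1 (Obsl1), which joins titin to myomesin, had -0.34 (adjusted p = 0.150). Equal totals added Myom1 to the genes called higher in KO against WT.

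The core of the Z-disc held 1 called gene among its 7 tested, Myot (higher, as were 8.13% of all genes), and 6 of 7 had log2 changes below 0 in KO against WT (median -0.24). The sign of Actn2 turned under equal totals, and those of Ldb3 and Myoz2 under quantile normalisation. Myot encodes myotilin, an actin cross-linker that binds alpha-actinin and filamin C. It was at 1528, 997, 1251, 865 and 486 in WT, at 2790, 2989, 2742, 4636 and 3926 in KO and at 702, 1438, 1484 and 1485 in KO+AAV. KO lay above both other groups without overlap, and KO+AAV lay within the WT range. The log2 change was 1.80 in KO against WT (SE 0.28, limma adjusted p = 0.000475), -1.45 in KO+AAV against KO (SE 0.30, adjusted p = 0.00740) and 0.35 in KO+AAV against WT (SE 0.30, adjusted p = 0.502). Both calls were kept in all 25 alternatives.

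The remaining core genes did not pass. Tcap, the most abundant per length, was lower in KO 2 (14705) and KO 3 (15613) than in any other 6-month library, and its log2 changes were -0.44 in KO against WT and 0.76 in KO+AAV against KO, with limma adjusted p = 0.380 and 0.132. The alpha-actinin gene Actn2 was at -0.05, the alpha-actinin and PDZ-LIM partner Ldb3 at -0.25, calsarcin 1 (Myoz2) at -0.24 and myopalladin (Mypn) at -0.23. Nebl, the cardiac nebulin relative, varied most: it was at 326, 957, 595, 307 and 228 in WT, 69.8, 642, 592, 512 and 154 in KO and 154, 131, 298 and 375 in KO+AAV. The groups overlapped, and KO 1, KO 5, KO+AAV 1 and KO+AAV 2 were the lowest 4 libraries.

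In the Z-disc periphery, KO against WT called 1 of 7 genes higher (Flnc), and KO+AAV against KO called 4 of 7 lower, beside 8.13% of all genes higher and 5.69% lower in these comparisons. All 7 had log2 changes below 0 in KO+AAV against KO (median -0.82) and against WT (median -0.52), under each scaling tried. Flnc (chr6:29433256-29461883, plus strand) encodes filamin C, an actin cross-linker of Z-disc and membrane. It was at 7961, 8450, 6358, 4956 and 4541 in WT, at 9081, 9649, 10141, 12324 and 12175 in KO and at 4018, 6656, 5848 and 5735 in KO+AAV. No library of KO overlapped the other groups. The log2 change was 0.76 in KO against WT (SE 0.19, limma adjusted p = 0.0127) and -0.95 in KO+AAV against KO (SE 0.20, adjusted p = 0.00835). The co-chaperone gene Bag3, whose protein helps to clear damaged filamin, did not pass, with -0.02 and -0.51 in the same comparisons (limma adjusted p = 0.969 and 0.0949).

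Synpo2 (chr3:123076519-123236149, minus strand), which encodes synaptopodin 2 (myopodin), an actin-binding Z-disc protein that works with Bag3 and filamin, was at 1424, 1969, 1464, 685 and 404 in WT and at 996, 2801, 2547, 3870 and 2097 in KO. The groups overlapped through KO 1 (log2 change 1.13, SE 0.43, limma adjusted p = 0.0891). KO+AAV held 366, 481, 854 and 973, all below KO (-1.86, SE 0.46, limma adjusted p = 0.0176). Without KO+AAV 1 the limma adjusted p of that call was 0.0793. The call was also lost with the Xist or Y-linked class as a covariate and among libraries with Y-linked expression alone. Synpo2 was among the genes called higher in KO against WT under equal totals.

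The PDZ-LIM genes encode adaptors that hold kinases and signalling proteins at alpha-actinin. Pdlim5 (chr3:142239590-142395696, minus strand) was at 12925, 13325, 12310, 9624 and 9293 in WT, 11462, 14338, 12293, 15121 and 14158 in KO and 5156, 7165, 9369 and 8991 in KO+AAV. KO+AAV lay below KO (log2 change -0.84, SE 0.19, limma adjusted p = 0.0101), and only KO+AAV 3 reached into the WT range (against WT -0.61, adjusted p = 0.118). The call against KO was lost with the Xist or Y-linked class as a covariate and among libraries with Y-linked expression alone. Pdlim1 (chr19:40221173-40271842, minus strand) was at 1102, 2219, 1088, 1202 and 857 in WT, 1370, 1282, 1500, 1674 and 1776 in KO and 578, 780, 1088 and 1072 in KO+AAV. KO+AAV lay below KO (-0.82, SE 0.24, limma adjusted p = 0.0392), a call lost in 13 of 25 alternatives, and WT 2 made WT overlap KO. About 11.4% of the Pdlim1 exon sequence, in stretches of 31 bases, also occurs in the predicted gene Gm5864. Pdlim7 and the small stretch-responsive protein gene Smpx stayed within 0.05 of 0 in KO against WT.

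Some members of different roles were low or high in the same libraries. In KO 1 and KO 5, Mylk4, Nebl and Mylk3 were lower, and Tpm2 and Sorbs2 higher, than in KO 2, KO 3 and KO 4. In KO+AAV 1 and KO+AAV 2, Nebl, Mylk3, Synpo2, Pdlim1, Pdlim5 and Sorbs2 were lower than in KO+AAV 3 and KO+AAV 4. Tnni3, Tnnt2, Tnnc1 and Myl2 were higher in KO+AAV 1 and KO+AAV 2, the libraries with less Sorbs2. Deviations of the 34 genes from their group mean had Spearman correlations with exon length of -0.467 in KO 1 and -0.249 in KO 5, and of 0.271 to 0.455 in the other KO libraries. They were -0.411, -0.0466, 0.263 and 0.319 in KO+AAV 1 to KO+AAV 4, and spread as widely in WT, from -0.462 in WT 4 to 0.525 in WT 2. These correlations are across genes of the same library and carry no test. The part of exon length in the results was not tested.

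**Figure D4:**
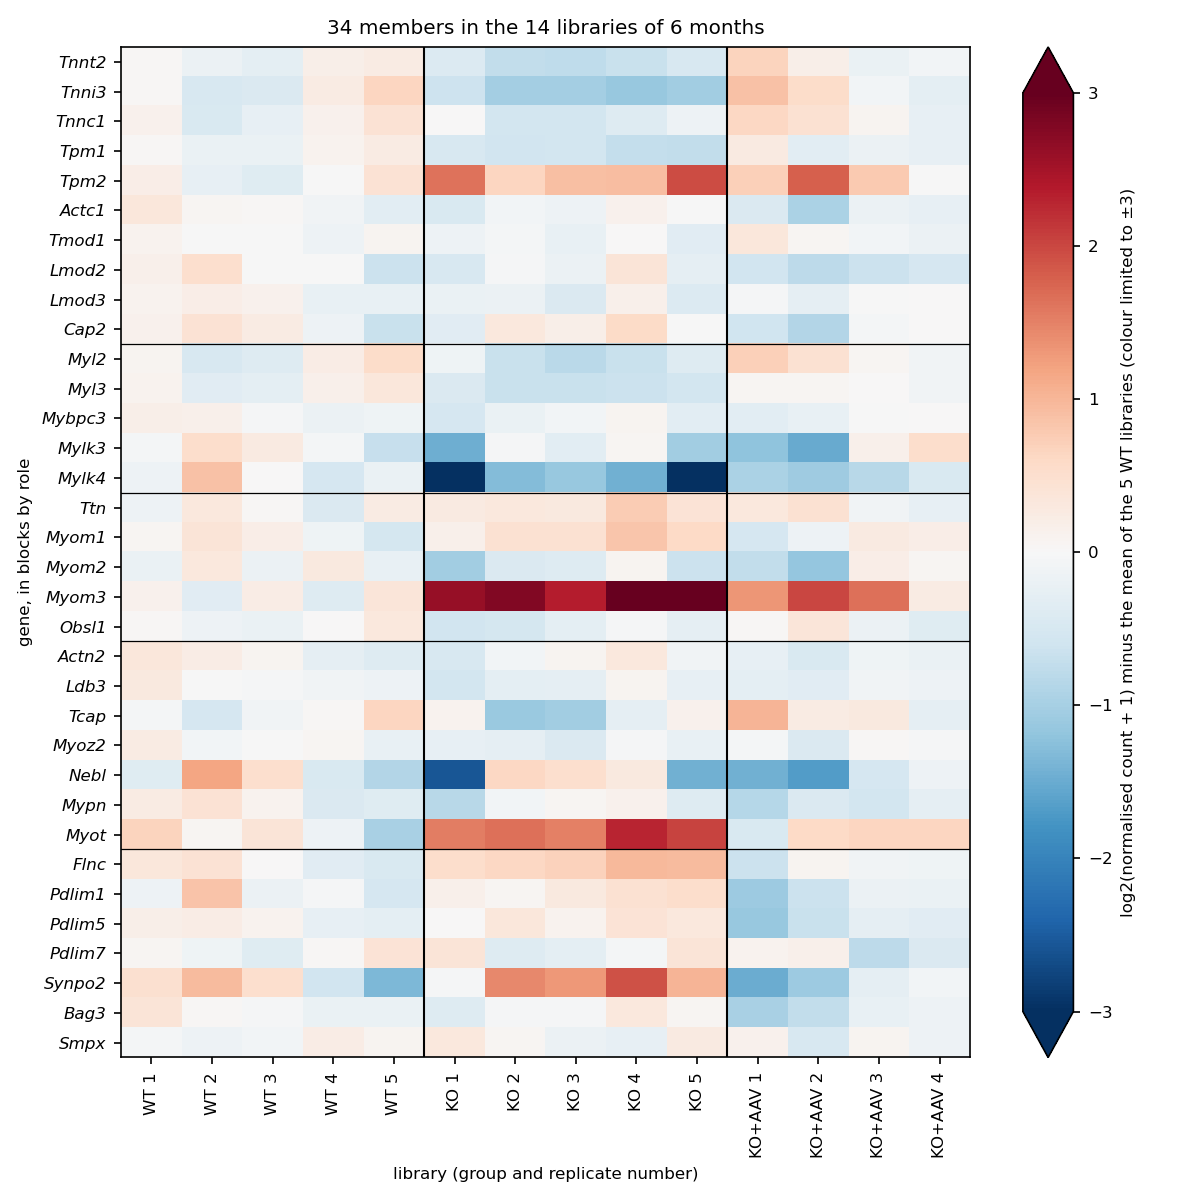
Log2(normalised count + 1) minus the mean of the 5 WT libraries (colour, limited to 3 on either side of 0) for the 34 genes (rows, in blocks by role) in the 14 libraries of 6 months (columns). Myom3 and Myot are red in all 5 KO columns, and Mylk4 is darkest in the columns of KO 1 and KO 5.

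At 6 weeks the largest log2 changes among the 34 genes were those of Myot, Myom3 and Pdlim1, all above 0. Of the 34 genes, 5 (14.7%) did not overlap between KO and WT, against 21.2% of all genes, and the median log2 change was -0.07. Myot was at 73.6, 36.5 and 68.8 in WT and at 232, 178 and 95.8 in KO. Pdlim1 was at 419, 361 and 485 in WT and at 721, 793 and 698 in KO. Both groups of values lay apart, and neither passed: the log2 changes were 1.46 for Myot (SE 0.36, limma adjusted p = 0.0957) and 0.81 for Pdlim1 (SE 0.19, adjusted p = 0.0783). The other 3 that did not overlap were Lmod2 (0.37), Mybpc3 (-0.58) and Ldb3 (-0.39).

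By role at 6 weeks, the thin filament ranged from -0.56 (Tnni3) to 0.37 (Lmod2), the thick filament group from -0.58 (Mybpc3) to 0.39 (Mylk4), and titin and the M-band from -0.38 (Myom1) to 0.82 (Myom3). The 95% interval of the Tnni3 change was -1.32 to 0.19, which includes its change at 6 months. Atrial markers were present in both groups, with sums over 8 genes of 98106 to 186356 in WT and 124463 to 229253 in KO, and their part in the 6-week values was not tested.

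The KO effect differed between the data of the 2 ages for Mylk4 and Myom3. Age, the separately normalised table and the atrial RNA content changed together, so their parts in these differences cannot be told apart. Mylk4 was at 403, 264 and 285 in WT and at 256, 459 and 586 in KO at 6 weeks, overlapping (log2 change 0.39, SE 0.29). Its KO effect at 6 months was lower by a log2 difference of -2.69 (SE 0.57, limma fits of both ages, adjusted p = 0.00700). Myom3 was at 22.7, 21.4 and 44.3 in WT and at 96.8, 43.6 and 29.5 in KO at 6 weeks, also overlapping (0.82, SE 0.45). Its KO effect was larger at 6 months by 2.20 (SE 0.56, adjusted p = 0.0282). The Mylk4 difference was kept in all 27 alternatives. The Myom3 difference was lost in 5 of 26, among them the fits without WT16, KO3 or KO4 of 6 weeks or without KO 5 of 6 months, with adjusted p up to 0.107. For Myot the KO effects at the ages, 1.46 and 1.80, differed by 0.35 (SE 0.46, 95% interval -0.60 to 1.30). The plot of both ages shows Myot near the line of equal effects and Mylk4 and Myom3 away from it.

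**Figure D5:**
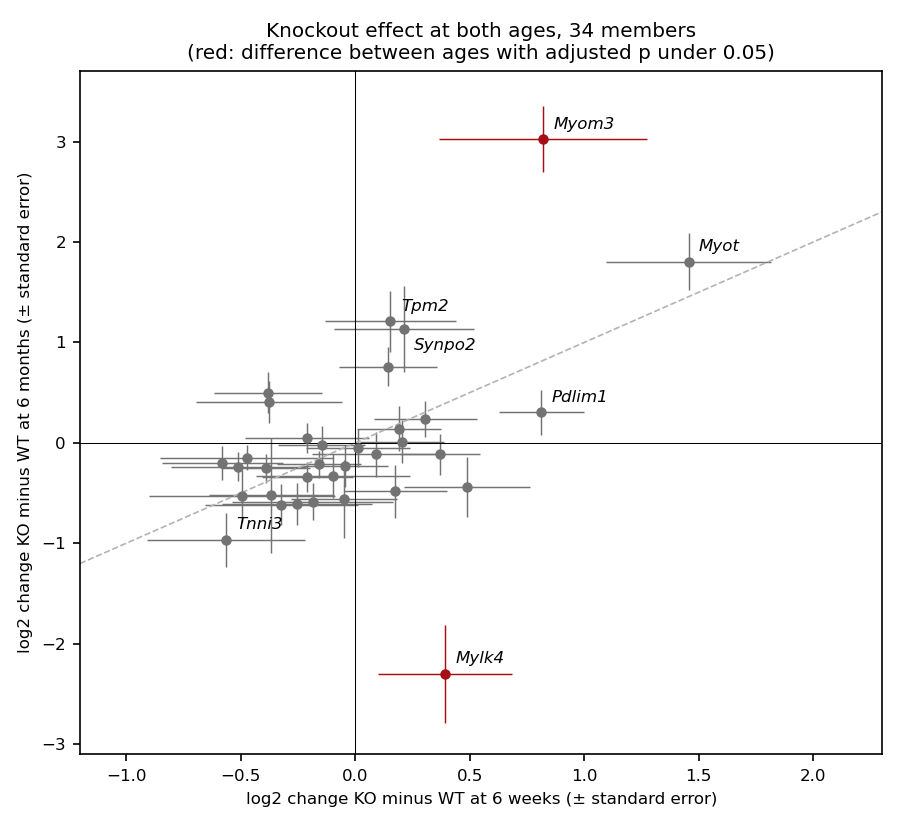
Log2 change KO minus WT at 6 weeks (horizontal axis) and at 6 months (vertical axis) with standard errors for the 34 genes; red points have a difference between ages with an adjusted p under 0.05, and the dashed line marks equal effects. Mylk4 (0.39 and -2.30) lies below the line and Myom3 (0.82 and 3.02) above it, while Myot (1.46 and 1.80) lies close to it.

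Sarcomere genes outside the 35 were tested in the same fit. The lists here and below were chosen with earlier results of these data known, so their counts are description only. Of 44 tested sarcomere and Z-disc genes from a list of 46, KO against WT at 6 months called 12 higher and 3 lower. The shares of all genes were 8.13% and 8.18%, and the median log2 change of the 44 was 0.10. The 4 of smallest p were Xirp2, a Xin-repeat actin-binding protein (3.64, SE 0.31, limma adjusted p = 1.73e-06), the slow myosin heavy chain Myh7 (3.32, SE 0.42, adjusted p = 6.97e-05), the stretch-responsive titin-binding protein Ankrd1 (2.66) and the synaptopodin relative Synpo2l (2.56). KO+AAV against KO called 2 of the 44 higher and 12 lower (5.55% and 5.69% of all genes), with Xirp2 at -2.54 and Synpo2l at -2.54. At 6 weeks Myh7 alone was called among them (3.31, SE 0.42, limma adjusted p = 0.00790), and in KO+AAV against WT Ankrd2 alone (2.65, SE 0.61, adjusted p = 0.0433). Of all genes, 0.378% were called higher at 6 weeks and 0.611% in KO+AAV against WT.

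Of 12 tested fetal, atrial and skeletal isoforms at 6 months, 5 were called higher (Myl1, Tnni1, Acta1, Mybpc2, Casq1) and 2 lower (Tnni2, Tnnt1) in KO against WT. Of all genes, 8.13% were called higher and 8.18% lower there. KO+AAV against KO called Tnnt1 higher and Mybpc2 and Casq1 lower, beside 5.55% of all genes higher and 5.69% lower. KO against WT at 6 weeks called Tnni1, Acta1, Mybpc2 and Casq1 higher among 13 tested, beside 0.378% of all genes. Slow skeletal troponin I (Tnni1), the fetal counterpart of Tnni3, averaged 1.39 in WT and 22.3 in KO, while Tnni3 averaged 95218 and 47045. The fast light chain Myl1, a relative of Myl3, rose by a log2 change of 3.58 (SE 0.30, limma adjusted p = 1.73e-06) and stayed above WT in KO+AAV (2.62, SE 0.32, adjusted p = 0.000498). The fast skeletal myosin Myh4 was at 0 in all WT and KO libraries of 6 months, and the muscle creatine kinase gene Ckm gave over 99% of the skeletal list's sum in each group.

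Markers of cardiomyocytes and fibroblasts moved with the KO at 6 months. Beside 16.3% of all genes, 0 of 10 endothelial, 0 of 8 macrophage and 0 of 5 erythroid markers were called in KO against WT. Their median log2 changes were -0.16, 0.32 and -0.41. With lists this short, no absence of change is read from these counts. Summed over 13 cardiomyocyte markers, WT libraries held 1120800 to 1361960, KO libraries 643409 to 967708 and KO+AAV libraries 996120 to 1275890. Myh6 alone made up 47.5% of this sum in WT, 34.6% in KO and 48.6% in KO+AAV. KO against WT called 4 of 13 lower (Myh6, Ckm, Ckmt2, Hrc) and 2 higher (Nppa, Nppb), beside 8.18% and 8.13% of all genes. The sum of the 46 other sarcomere and Z-disc genes, Myh6 included, was 850682 to 1071440 in WT and 888926 to 1183460 in KO. Myh6 made up 62.7% of that sum in WT and 25.2% in KO, so its make-up differed between the groups. Over 10 fibroblast markers the sums were 14324 to 19719 in WT, 29602 to 47436 in KO and 17805 to 21741 in KO+AAV. KO against WT called 7 of 10 higher, beside 8.13% of all genes. In bulk RNA, fewer cells of a type and less RNA per cell cannot be told apart, and the part of these markers in the changes of the 35 genes was not tested.

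The KO group of 6 months held no library with Xist, so class was also fitted as a covariate and libraries with Y-linked expression were compared alone. With the covariate, KO against WT called 5 of 34 (Tpm2, Myom3, Myot, Flnc and Mylk4) and KO+AAV against KO 3 of 34 (Myom3, Myot and Flnc), against 13.2% and 4.04% of all genes. Among libraries with Y-linked expression alone (3 WT, 5 KO, 2 KO+AAV) the calls were 4 of 34 (Mylk4, Tpm2, Myom3, Myot) and 1 of 34 (Myot), about the shares of all genes called there (11.3% and 2.46%). Tnni3 kept its direction in both settings and lost its calls, with a log2 change of -0.67 in KO against WT among these libraries (limma adjusted p = 0.116).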

How the data were processed

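RNA of 20 mouse hearts in 5 groups was measured by stranded poly(A) RNA-seq (150 bp read pairs, per the labels' protocols). For each age the authors deposited a table of normalised counts, and the ages were scaled apart. These deposited values are a signal (fractional, never below 0). The series text names DESeq2 for the authors' own tests, and the submitters' processing notes name mm10. The aligner, the counter and its strand setting were not given in these sources. Low values lay within 0.1 of a multiple of 1 step for 76.02% to 94.40% (6 weeks) and 89.53% to 94.46% (6 months) of genes, under the 95% set for recovering whole reads, so depth in reads is unknown and no count test was run.

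Values were analysed as log2(value + 1) with limma 3.58.1 in R 4.3.3 (mean-variance trend, two-sided), so changes of low genes are understated. A gene was tested when it reached 10 in at least 3 libraries (6 weeks) or 4 (6 months), the size of the smallest group. P-values were adjusted over all genes tested, threshold 0.05, and the 3 groups of 6 months shared 1 fit. For the change of the KO effect with age, the log2 changes were subtracted and divided by the combined standard error (Welch-Satterthwaite degrees of freedom). Sorbs2 was compared by exact permutation. Lengths are summed exons of GENCODE vM21, and promoters are those of RefSeq. The fits were tested on simulated counts with the same spread setting for every gene and no shifts shared within a library. That test therefore does not cover genes of wider spread or shifts of whole libraries. Python 3.11.15, pandas 2.3.3, numpy 2.4.6, scipy 1.17.1 and matplotlib 3.10.9 served for the rest.

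All members were to be accounted for, with values per library for those called. Up to 3 others of a role group (highest level, largest and smallest change) and the 4 genes of smallest p in the other sarcomere lists could be named; further genes were named after their values were seen. The 35 members and the lists were chosen with earlier results of these data known. The 6-week columns matched a group by name, not a sample. At 6 months, deviations from the group mean correlated above 0.1 in 7 of 13 pairs of like-numbered libraries (range -0.391 to 0.253). Pairs of unlike number were not compared, so whether the numbers pair libraries was not tested. Alternatives were another pseudocount (10), filters (none, 50), scalings, no trend, 2 groups per fit, the replicate number as a block, the Xist or Y-linked class, and each library left out.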

Additional observations from a re-analysis of the deposited data

Results flagged for a closer look

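In groups of 4 or 5 libraries at 6 months, a library was singled out when its gap to the nearest other exceeded the 95% limit of Dixon's ratio. Of 103 such groups 7 did so, where chance singles out about 1 in 20. In KO, KO 1 was highest for Tnni3 (59649, others 41339 to 44984) and KO 4 for Ttn (116254, others 82293 to 91381). In WT, WT 2 was highest for Mylk4 (4449, others 1699 to 2431) and for Pdlim1 (2219, others 857 to 1202), and WT 1 for Ldb3 (19734, others 14394 to 15862). In KO+AAV, KO+AAV 2 was lowest for Lmod3 (2012, others 2381 to 2436) and KO+AAV 1 for Myot (702, others 1438 to 1485).

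The KO effect on Mylk4 differed between ages, by a log2 difference of -2.69 between 6 months and 6 weeks. That on Myom3 also differed, by 2.20. For both genes, age, the separately normalised table and the atrial RNA content cannot be told apart.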

How the results depend on the processing

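The number of members called moved by over 1.5 times in these settings. In KO against WT at 6 months it was 8, and 5 without a filter on low values, 5 with the Xist or Y-linked class as a covariate, 4 among libraries with Y-linked expression and 5 to 9 with 1 library left out (5 without WT 4, which lost Tnni3, Tpm1 and Myl3). In KO+AAV against KO it was 8, and 3 with the covariate, 1 among libraries with Y-linked expression and 4 to 10 with 1 library left out (4 without KO+AAV 1, which lost Tnnt2, Tnni3, Pdlim1 and Synpo2). In KO+AAV against WT it was 0, and 0 to 1 with 1 library left out (Lmod2 without WT 5, Myom3 without KO+AAV 4). At 6 weeks it was 0, and 1 with the covariate (Myot). For the difference between ages it was 2, and 1 with a filter at 50, 1 without the trend and 1 to 2 with 1 library left out. The cause of these moves was not tested. The members' median in KO against WT at 6 months was -0.17, and -0.018 with equal totals and 0.060 with quantile normalisation. No called member changed direction in any setting.

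With the replicate number as a block, the calls at 6 months were 6 in KO against WT (Tpm1 and Myl3 lost), 10 in KO+AAV against KO (Myl2 and Tcap gained) and 0 in KO+AAV against WT, though the numbers share no stated source. No paired analysis was possible at 6 weeks because the columns carry no replicate number of the labels. Tests with edgeR and DESeq2 were not run because whole reads were not recovered. Depth in reads is unknown, so counting error could not be given, and the lowest members (Myom3, Nebl, Myoz1) are the least precise. Without a filter Myoz1 was tested and called lower in KO+AAV than in KO.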
